A study of Mus musculus with 6 samples.

Results

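Genes that make or break down N-acylethanolamines were followed in cultured mouse microglia with and without phospholipase C gamma 2. The members were named by symbol: Napepld, Gde1 and Abhd4 for synthesis, and Naaa and Faah for hydrolysis. Each of the 5 symbols stood on 1 row of the deposited table, which holds 54347 gene rows in all. N-acylethanolamines are signalling lipids that include the endocannabinoid anandamide and the anti-inflammatory lipid palmitoylethanolamide. They are released from N-acyl phosphatidylethanolamines in membranes, either directly by a phospholipase D or by removal of the acyl chains followed by a phosphodiesterase, and are cut by amidases to a fatty acid and ethanolamine.

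The libraries came from primary microglia (brain-resident macrophages) of C57BL/6 mice. Forebrains were taken from Plcg2+/+ and Plcg2-/- littermates aged 2 to 3 days, and mixed glia were grown with 10% serum and 5 ng/mL of the myeloid growth factor GM-CSF. Microglia were shaken off on day 12 to 13 and rested 72 h or longer with less of both (1% serum, 0.5 ng/mL GM-CSF), so both genotypes carried the same growth factor exposure. There were 3 libraries per genotype, named here by genotype and replicate number; the sources used here do not give the deleted part of Plcg2. The labels do not state whether replicates were separate animals or cultures. Y-linked levels, given below, differed within each genotype, so its 3 libraries were not all repeats of the same source. The spread behind each p-value is that of these samples, and how much of it is technical is unknown. Values are TPM, transcript abundances per length scaled so that every library has the same total, and the depth behind them is unknown.

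The plot of member levels by library gives the overall picture. Gde1 fell in Plcg2-/- microglia, and its 3 values per genotype lay close together. Naaa was several-fold higher on average in Plcg2-/- microglia, but it varied widely between libraries and passed the test narrowly. Abhd4 and Napepld did not pass, and Faah was near the bottom of detection in both genotypes. Of the 4 members that had a mean TPM of at least 1 and were tested, 1 rose and 1 fell, where 20.9% of all 12652 genes tested passed at a limma adjusted p below 0.05, 15.6% higher and 5.31% lower.

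**Figure D1:**
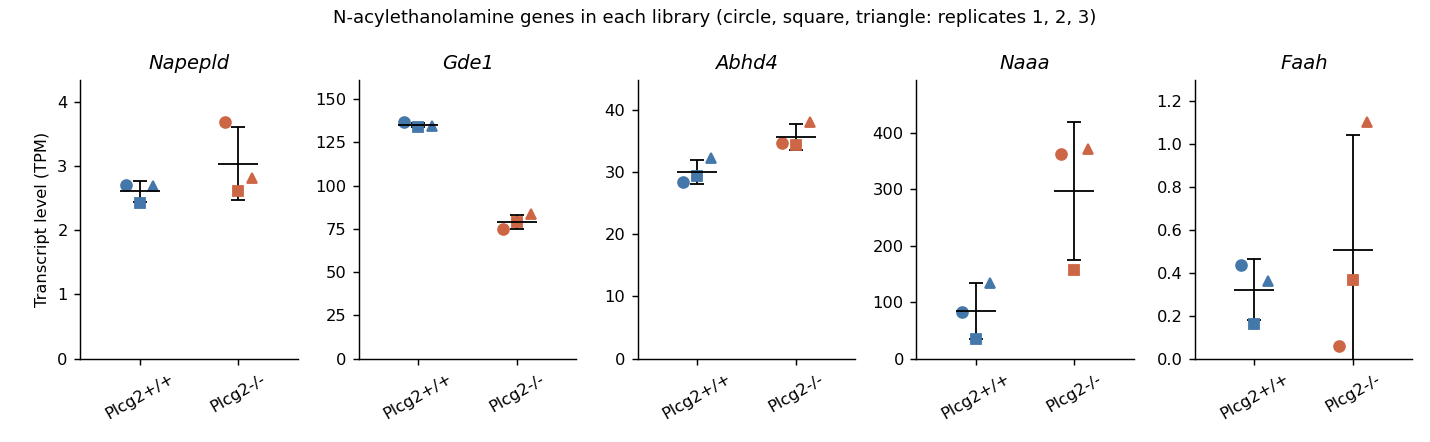
Level of each member in TPM (linear axes from 0) in the 3 Plcg2+/+ and 3 Plcg2-/- libraries; symbols mark the replicate number, and the bars give the mean and SD. The genotypes do not overlap for Gde1, Abhd4 and Naaa and overlap for Napepld and Faah, where the lower SD bar in Plcg2-/- runs past 0 and is cut at the axis.

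The stretches upstream of Naaa and Gde1 are shown because these were the members that passed the test, in opposite directions. Both are from RefSeq on GRCm38.p6, minus strand, 5′ to 3′, and cover the bases before the gene start in both RefSeq and GENCODE M21. The Naaa stretch is chr5:92278182-92278431 (250 bases, 59.2% G or C), and the Gde1 stretch is chr7:118705779-118705988 (210 bases, 58.6% G or C). Capitals mark a GC box (GGGCGG) or a CCAAT box (CCAAT), each read on either strand.
Naaa: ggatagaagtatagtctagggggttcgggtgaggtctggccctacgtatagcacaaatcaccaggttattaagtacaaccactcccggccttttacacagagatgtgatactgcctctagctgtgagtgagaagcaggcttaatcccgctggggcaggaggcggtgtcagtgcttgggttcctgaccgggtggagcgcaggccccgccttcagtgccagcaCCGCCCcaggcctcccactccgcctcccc
Gde1: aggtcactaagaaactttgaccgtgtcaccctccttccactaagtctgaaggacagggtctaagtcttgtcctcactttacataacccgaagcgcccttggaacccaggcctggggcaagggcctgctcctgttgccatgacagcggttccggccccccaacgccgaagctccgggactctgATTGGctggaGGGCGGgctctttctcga

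With the RefSeq start site counted as 0, the GC box lay at -29 to -24 in Naaa and at -58 to -53 in Gde1. The CCAAT box lay at -68 to -64 in Gde1. In Naaa a CCAAT box lay at 16 to 20, past the printed bases. All 5 members matched RefSeq, with 6 windows of 300 bases because Abhd4 has a pair of start sites. A GC box stood in 5 of these 6 windows and in 35.7% of 32851 windows of the same length over all genes. Each Abhd4 window was among the 5. The 6 windows held 57.3% to 70.3% G or C, against a median of 52.7% over all windows. A CCAAT box stood in 3 of the 6 windows and in 37.4% of all windows. The letters of the interferon-stimulated response element (GAAA repeated after any 2 bases), the gamma-activated site (TTCNNNGAA), the E-box found in lysosomal gene promoters (CACGTG) and the TATA box (TATAAA) were in 0 of the 6 windows, and in 3.44%, 8.30%, 7.15% and 13.6% of all windows. Motifs were read on both strands. No GC box match overlapped a CCAAT box match, but CCAAT box matches of Abhd4 at -193 to -189 and -190 to -186 shared bases. A match describes letters only, and an absent match says only that the letters are not in the window.

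Gde1 encodes glycerophosphodiester phosphodiesterase 1, a membrane enzyme that releases N-acylethanolamines from glycerophospho intermediates in the last step of the multistep route. The gene (ENSMUSG00000033917.15) lies on GRCm38 chromosome 7, positions 118688545 to 118705778, minus strand, and codes for protein. Gde1 had 136.6, 133.9 and 134.6 TPM in Plcg2+/+ libraries 1, 2 and 3, and 74.9, 78.8 and 83.3 TPM in Plcg2-/- libraries 1, 2 and 3. The lowest Plcg2+/+ library stood well above the highest Plcg2-/- library, with no overlap. The mean level went from 135.04 ± 1.42 to 79.0 ± 4.24 TPM (SD, n = 3 each), so the Plcg2+/+ mean was 1.71 times the Plcg2-/- mean. Gde1 fell by 0.77 ± 0.10 (SE) on the log2(TPM + 1) scale, with a 95% interval of -0.99 to -0.54 (limma adjusted p = 0.00335). Between libraries of the same number, the log2 differences were -0.86, -0.76 and -0.68. Gde1 passed the test in each of the 17 alternative settings, with log2 fold changes between -1.05 and -0.73. The median log2 fold change of all genes tested was 0.19, and the change of Gde1 was -0.95 relative to it. An unclassified gene model on the other strand, Gm45236, overlaps Gde1 and was listed at 0 TPM in every library.

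Abhd4 encodes a serine hydrolase that strips acyl chains from N-acyl phosphatidylethanolamines, a step before Gde1. The gene (ENSMUSG00000040997.14) is on the plus strand of GRCm38 chromosome 14 (54254188 to 54270637) in GENCODE M21, which holds another version of this identifier. The level of Abhd4 was 28.4, 29.4 and 32.2 TPM in Plcg2+/+ libraries and 34.7, 34.3 and 38.0 TPM in Plcg2-/- libraries. All Plcg2-/- values lay above all Plcg2+/+ values, by a narrow margin. The log2 fold change was 0.24 ± 0.10 (SE), with a 95% interval of -0.01 to 0.49 (limma adjusted p = 0.140). It stood 0.06 above the median of all genes tested, and was 0.03 after median-of-ratios scaling. Separation of the genotypes was common in these data: the 3 values of one genotype lay above the 3 of the other for 3 of the 4 tested members (Gde1, Abhd4 and Naaa) and for 43.3% of all genes tested. Plcg2-/- values were above for 2 of these members and 32.4% of genes, and below for 1 member and 10.9% of genes.

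Napepld encodes the phospholipase D that releases N-acylethanolamines in a single step. The gene (ENSMUSG00000044968.16) lies on GRCm38 chromosome 5, positions 21662901 to 21701396, minus strand, and contains the pseudogene Gm15719, listed at 0 TPM throughout. Its level was 2.71, 2.42 and 2.69 TPM in Plcg2+/+ libraries and 3.68, 2.61 and 2.81 TPM in Plcg2-/- libraries. The genotypes overlapped, and Plcg2-/- 1 was the highest library. The log2 fold change of Napepld was 0.15 ± 0.17 (SE), with a 95% interval of -0.25 to 0.56 (limma adjusted p = 0.548), and its sign turned after median-of-ratios scaling (-0.0058). On the per-length scale of TPM, Gde1 stood at 50.0 to 55.4 times the level of Napepld in Plcg2+/+ libraries and at 20.4 to 30.2 times in Plcg2-/- libraries. Gde1 stood at 4.18 to 4.81 times the level of Abhd4 in Plcg2+/+ libraries and at 2.16 to 2.30 times in Plcg2-/- libraries.

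Naaa encodes N-acylethanolamine acid amidase, a lysosomal cysteine hydrolase that works at acid pH and prefers palmitoylethanolamide. The gene (ENSMUSG00000029413.14) lies on GRCm38 chromosome 5, positions 92257659 to 92278170, minus strand, and codes for protein. Naaa had 82.6, 34.6 and 134.4 TPM in Plcg2+/+ libraries 1, 2 and 3, and 363, 156 and 371 TPM in Plcg2-/- libraries 1, 2 and 3. The genotypes did not overlap, but the lowest Plcg2-/- library lay close to the highest Plcg2+/+ library, and library 2 was the lowest in each genotype. Within a genotype, the highest library stood at 3.88 times the lowest in Plcg2+/+ and 2.38 times in Plcg2-/-, against 1.02 and 1.11 times for Gde1.

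The mean level of Naaa went from 83.9 ± 49.9 to 297 ± 122 TPM (SD, n = 3 each), 3.54 times as high. Naaa rose by 1.91 ± 0.54 (SE) on the log2(TPM + 1) scale, with a 95% interval of 0.64 to 3.18 (limma adjusted p = 0.0464). Between libraries of the same number, the Naaa differences were 2.12, 2.14 and 1.46 on the log2 scale. All 3 had to be higher in Plcg2-/-, because the genotypes did not overlap. The direction held in all 17 alternatives, but the call was lost in 10 of them. Leaving out Plcg2+/+ 1 or Plcg2+/+ 2 gave a limma adjusted p of 0.104 or 0.0931, and leaving out Plcg2-/- 1 or Plcg2-/- 3 gave 0.146 or 0.134. It was 0.0635 after median-of-ratios scaling without a replicate block. With same-numbered libraries as pairs, inferred from these data and not given by the labels, the limma adjusted p was 0.00331 on deposited TPM. With the same pairs after that scaling it was 0.00427 (log2 fold change 1.69 ± 0.16, SE). Over all alternatives it lay between 0.00331 and 0.146.

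The mean log2(TPM + 1) of 4 Y-linked genes was 0.12, 4.20 and 4.10 in Plcg2+/+ libraries 1, 2 and 3. In Plcg2-/- libraries 1, 2 and 3 it was 3.54, 0.25 and 0.30, so this level varied within both genotypes. Libraries of the same number also lay far apart in this level, for each of the 3 numbers. With that level as a covariate the log2 fold change of Naaa was 1.95 ± 0.63 (SE; limma adjusted p = 0.101) and that of Gde1 was -0.79 ± 0.12 (SE; limma adjusted p = 0.0171).

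Faah encodes fatty acid amide hydrolase, the membrane serine hydrolase best known for breaking down anandamide. The gene (ENSMUSG00000034171.13) lies on GRCm38 chromosome 4, positions 115967145 to 116017926, minus strand. Its level was 0.436, 0.161 and 0.360 TPM in Plcg2+/+ libraries and 0.0565, 0.363 and 1.10 TPM in Plcg2-/- libraries. Both the lowest and the highest value came from Plcg2-/- libraries. Faah had a mean below 1 TPM and was not among the genes tested. In a fit with no filter on low values its log2 fold change was 0.14 ± 0.25 (SE), with a 95% interval of -0.48 to 0.76 (limma adjusted p = 0.793), so no difference was detectable at these levels.

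**Figure D2:**
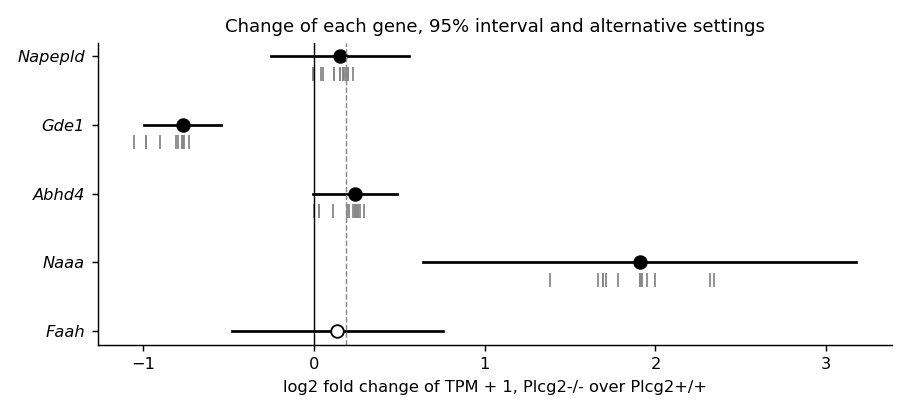
Log2 fold change of TPM + 1 for each member (point) with its 95% interval (bar); grey ticks below each bar give the value under each alternative setting, and the dashed line is the median of all genes tested (0.19). Gde1 is the member whose interval and ticks all lie below 0, all Naaa ticks lie above 0 over a wide range, and Faah (open point) comes from the fit with no filter on low values.

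The order of the members changed at the top. In Plcg2+/+ microglia, mean levels ran from Gde1 to Naaa, Abhd4, Napepld and Faah. The ranges of Gde1 and Naaa touched there, because Naaa in Plcg2+/+ 3 (134.4 TPM) exceeded Gde1 in Plcg2+/+ 2 (133.9 TPM). In Plcg2-/- microglia Naaa came first and Gde1 second, followed by Abhd4, Napepld and Faah, with no overlap between neighbours.

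The ratio of Naaa to Gde1 within a library was 0.604, 0.258 and 0.999 in Plcg2+/+ libraries 1, 2 and 3 and 4.85, 1.98 and 4.46 in Plcg2-/- libraries. Each Plcg2+/+ library had less Naaa than Gde1 and each Plcg2-/- library had more, although Plcg2+/+ 3 was at near parity. A ratio within a library does not change when the whole library is multiplied by a single factor, but it can change under quantile normalization. The ratio was not tested. Its separation by genotype follows from the members, as Naaa was higher and Gde1 lower in every Plcg2-/- library than in any Plcg2+/+ library. The summed level of the 3 synthesis members was 166 to 169 TPM in Plcg2+/+ and 113 to 124 TPM in Plcg2-/- libraries. The summed level of Naaa and Faah was 34.8 to 135 TPM in Plcg2+/+ and 156 to 373 TPM in Plcg2-/- libraries, nearly all of it Naaa. Hydrolysis members made up 17.3% to 44.3% of the summed member level in Plcg2+/+ and 57.5% to 76.2% in Plcg2-/- libraries. These are shares of transcript, not of enzyme activity.

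**Figure D3:**
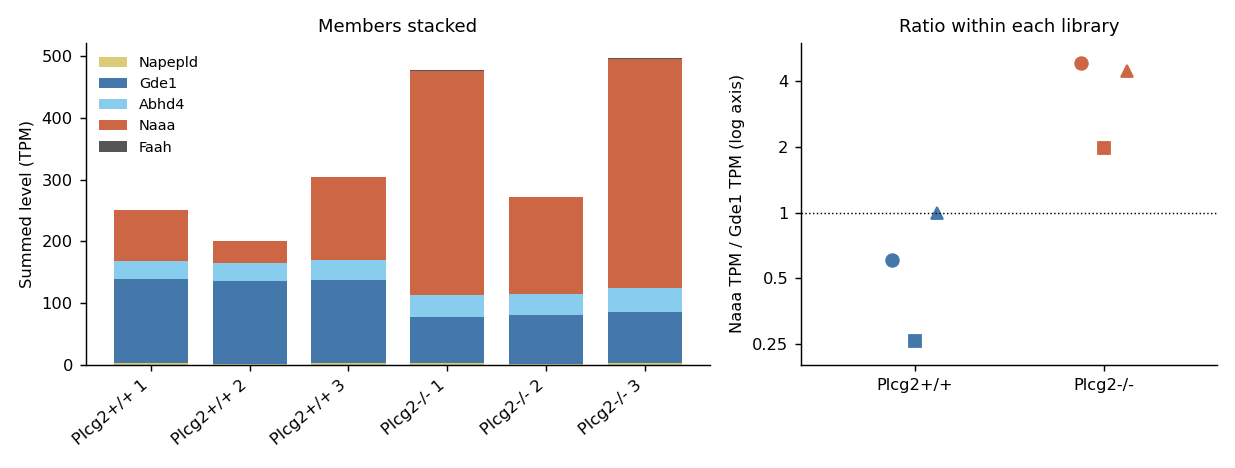
Left, the TPM of the 5 members stacked for each library (linear axis from 0); right, the ratio of Naaa to Gde1 TPM in each library on a log axis, with symbols for the replicate number and a dotted line at 1. All 3 Plcg2+/+ ratios lie below 1 and all 3 Plcg2-/- ratios lie above it, between 1.98 and 4.85.

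Library-wide measures bear on these values. Plcg2 itself stood at 39.7 to 54.9 TPM in Plcg2+/+ and 16.05 to 16.7 TPM in Plcg2-/- libraries, so transcript remained. Mitochondrially encoded genes held 13.6% to 17.3% of TPM in Plcg2+/+ and 5.00% to 8.68% in Plcg2-/- libraries (exact permutation test, two-sided, p = 0.1, the lower limit for groups of 3). With TPM rescaled without those genes, Gde1 was at -0.90 ± 0.10 (SE) and Naaa at 1.78 ± 0.52 (limma adjusted p = 0.00210 and 0.0636). Over all genes, 1971 were higher and 672 lower on deposited TPM, against 977 and 1001 after median-of-ratios scaling.

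Markers of other cell types were read beside the members, since in bulk samples fewer cells of a type and less RNA per cell cannot be told apart. Of 12 microglia and macrophage markers, 10 were tested, of which 3 were higher and 3 lower. Fcrls rose from 2.80 ± 0.493 to 37.3 ± 14.1 TPM, P2ry12 from 5.68 ± 3.55 to 23.8 ± 4.46 TPM (SD, n = 3 each; limma adjusted p = 0.000922 and 0.0166), and Aif1 rose too. Cx3cr1 fell from 2.06 ± 0.803 to 0.244 ± 0.145 TPM (SD, n = 3 each; limma adjusted p = 0.0203), as did Trem2 and Itgam from higher levels. Csf1r, the receptor gene for the macrophage growth factor M-CSF, stood at 503 to 780 TPM over both genotypes, and the homeostatic microglia genes Tmem119 and Sall1 had means below 1 TPM. Of 6 border macrophage markers, 3 were tested and 2 of these, Cbr2 and Pf4, rose. The summed level of that list was 181 to 283 TPM in Plcg2+/+ and 376 to 606 TPM in Plcg2-/- libraries, while Lyve1 and Cd163 were at most 0.0731 TPM. Most of that sum was Mrc1, at 148 to 245 TPM in Plcg2+/+ and 266 to 469 TPM in Plcg2-/- libraries, which did not pass (limma adjusted p = 0.0599). F13a1 was not tested, with at most 0.0409 TPM in Plcg2+/+ and 0.471 to 0.669 TPM in Plcg2-/- libraries. Of 10 dendritic cell markers, 4 were tested: Wdfy4 rose, Batf3 and Clec9a fell, and Flt3 and Xcr1 were at most 0.306 TPM. Its summed level was 36.9 to 49.0 TPM in Plcg2+/+ and 40.2 to 54.1 TPM in Plcg2-/- libraries. Summed neuron markers were at most 11.3 TPM and fibroblast and mural markers at most 4.99 TPM in any library. Astrocyte markers summed to 30.4 to 60.5 TPM in Plcg2+/+ and 43.0 to 59.6 TPM in Plcg2-/- libraries, with Aqp4 and Gja1 at most 1.25 TPM, although Aldh1l1 rose. Oligodendrocyte lineage markers summed to 56.5 to 122.5 TPM and 55.8 to 93.0 TPM, and of 6 tested Cspg4 fell. Of the endothelial markers, Kdr rose and Flt1 fell while Cldn5 and Cdh5 were at most 0.766 TPM. Of the lymphocyte and neutrophil markers, only S100a8 was tested, and it did not pass. The part of the border macrophage markers in the Naaa values was not tested.

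The genes whose levels over the 6 libraries were most like those of a member were found among 8558 protein-coding genes with a mean of at least 5 TPM. Likeness was the root-mean-square difference of log2(TPM + 1) after centring each gene. For Gde1 the nearest were Galnt6, a mucin-type glycosyltransferase gene, Dmxl2, which encodes a regulator of the proton pump that acidifies vesicles, and Stk11ip, at differences of 0.07, 0.08 and 0.08. For Naaa they were Glipr2, Arhgap15 and Arhgap26, the latter pair being genes of GTPase-activating proteins, at 0.19, 0.24 and 0.25. Glipr2 stood at 4.46, 2.19 and 12.2 TPM in Plcg2+/+ and 30.2, 13.3 and 28.3 TPM in Plcg2-/- libraries, with the low value in library 2 of each genotype that Naaa also showed. For Abhd4 the nearest were Hnrnph2, Abcf1 and Tbck, at 0.02 to 0.03. For Napepld they were Uspl1, Mettl6 and Dhrs4, at 0.03 to 0.04. With 6 libraries and so many genes searched, close matches arise readily, and likeness is given as a description only.

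**Figure D4:**
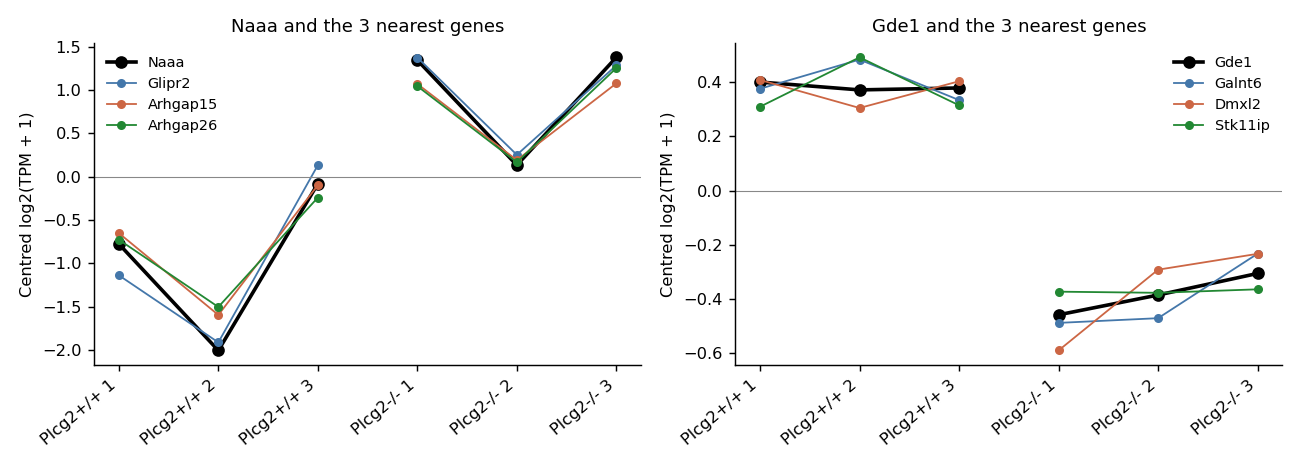
Centred log2(TPM + 1) of Naaa (left) and Gde1 (right), in black, with the 3 genes of most similar level over the 6 libraries; lines only join libraries of one genotype and carry no order. Naaa and its neighbours dip in library 2 of both genotypes. Gde1 is nearly level within Plcg2+/+, where its neighbours vary more, and each of these genes is lower in all Plcg2-/- libraries.

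Around the members, 44 of 47 listed symbols of other enzymes, carriers, receptors and lysosomal hydrolases were found; the remaining 3 (Hrasls, Hrasls5 and Pla2g16) are older names of listed genes. Of these, 31 were tested, of which 6 rose and 3 fell, with a median log2 fold change of -0.02 against 0.19 for all genes tested. Over all genes tested, 20.9% were called, 15.6% higher and 5.31% lower. The count that fell was 1 when Plcg2+/+ 1 or Plcg2-/- 1 was left out and 6 when Plcg2+/+ 3 was.

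Of 5 tested genes of alternative synthesis routes, 1 rose and none fell. Inpp5d, which encodes the inositol phosphatase SHIP1, rose from 58.9 ± 4.69 to 97.7 ± 3.66 TPM (SD, n = 3 each; limma adjusted p = 0.00598). Its log2 fold change was 0.72 ± 0.11 (SE) on deposited TPM, 0.51 after median-of-ratios scaling and 0.41 after quantile normalization, where Gde1 was at -0.77, -0.98 and -1.05. Plaat3, an acyltransferase of the family that makes N-acyl phosphatidylethanolamines, had a Plcg2+/+ mean of 8.56 ± 3.37 TPM and a Plcg2-/- mean of 18.1 ± 7.15 TPM (SD, n = 3 each; limma adjusted p = 0.0687). Gdpd1 and Gdpd3 encode relatives of Gde1 that act on lysophospholipids. Gdpd1 had a log2 fold change of -0.02 (95% interval -0.31 to 0.26) and Gdpd3 one of -0.56 (-1.15 to 0.03), and neither passed. Pla2g4e, a calcium-dependent N-acyltransferase gene, was at most 0.0336 TPM.

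Among enzymes of N-acyl amide turnover, Asah2 rose and Pam fell, of 3 tested. Asah2, neutral ceramidase, rose from 4.75 ± 1.37 to 13.0 ± 2.57 TPM and Pam, which converts N-acylglycines to primary amides, fell from 30.3 ± 8.50 to 13.4 ± 2.23 TPM (SD, n = 3 each; limma adjusted p = 0.00953 and 0.0187). Without Plcg2+/+ 1 or Plcg2-/- 1 the Pam call was lost (limma adjusted p = 0.0653 and 0.0626), as it was with the Y-linked covariate (0.0563). Asah1, acid ceramidase and the closest relative of Naaa, had a Plcg2+/+ mean of 352 ± 28.0 TPM and a Plcg2-/- mean of 329 ± 25.3 TPM (SD, n = 3 each). Its log2 fold change was -0.10 with a 95% interval of -0.38 to 0.18 (limma adjusted p = 0.577), and in each Plcg2+/+ library Asah1 exceeded Naaa. In Plcg2-/- libraries 1, 2 and 3 Asah1 had 354, 303 and 328 TPM, against 363, 156 and 371 TPM for Naaa. Ptgs2, cyclooxygenase-2, which can oxidise anandamide, had a mean below 1 TPM and was not tested, as was Pm20d1.

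Intracellular carriers of N-acylethanolamines moved both ways, with 2 of 5 higher and 1 lower. Fabp5, by far the most abundant of them here, rose from 2154 ± 256 to 3357 ± 133 TPM (SD, n = 3 each; limma adjusted p = 0.0249). The Fabp5 call was lost after median-of-ratios scaling without and with the replicate block (limma adjusted p = 0.0712 and 0.120), with no filter on low values (0.168), without mitochondrially encoded genes (0.0507) and with the Y-linked covariate (0.0779). It was also lost without Plcg2+/+ 1, Plcg2-/- 1, Plcg2-/- 2 or Plcg2-/- 3 (limma adjusted p = 0.0960, 0.0829, 0.0577 and 0.0890). On the log2 scale Fabp3 rose by 1.43 ± 0.22 (SE; limma adjusted p = 0.00689) and Fabp7 fell by 1.44 ± 0.25 (SE; limma adjusted p = 0.0105). Scp2 had a log2 fold change of 0.58 (95% interval 0.16 to 0.99, limma adjusted p = 0.0579) and Hspa2 one of 0.11 (limma adjusted p = 0.777).

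Of 8 receptor and target genes, 3 were tested and Gpr55, a lipid receptor gene, had a log2 increase of 1.54 ± 0.23 (SE; limma adjusted p = 0.00687). The nuclear receptor gene Pparg had means of 40.4 ± 12.2 TPM (Plcg2+/+) and 34.9 ± 9.98 TPM (Plcg2-/-; SD, n = 3 each; limma adjusted p = 0.626). The cannabinoid receptor gene Cnr2 had means of 23.6 ± 0.734 and 23.6 ± 6.09 TPM (SD, n = 3 each; limma adjusted p = 0.922). Ppara, the nuclear receptor of palmitoylethanolamide, was listed at 0 TPM in all Plcg2+/+ libraries and reached at most 0.0774 TPM, and Cnr1 reached at most 0.0848 TPM. Trpv1 and Gpr119 were listed at 0 TPM in every library. Gpr18 stood at 0.381 to 1.82 TPM and was not tested.

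Lysosomal lipid hydrolases and their cofactors, the compartment in which Naaa works, were tested for all 16 listed genes. On the log2 scale Gm2a, the GM2 activator, rose by 0.41 ± 0.11 (SE; limma adjusted p = 0.0431) and Gla, alpha-galactosidase, fell by 0.44 ± 0.12 (SE; limma adjusted p = 0.0398). Their median log2 fold change was -0.08, and the highest of them was 0.41, against 1.91 for Naaa. The Gm2a call held with the other pseudocounts, with a mean TPM of at least 5 and without Plcg2+/+ 2, and was lost in the remaining alternatives (limma adjusted p = 0.0546 to 0.461). The Gla call was lost without any 1 library except Plcg2+/+ 3 (limma adjusted p = 0.0784 to 0.121), with no filter (0.0655), with constant prior variance (0.0581) and with the Y-linked covariate (0.110). Psap and Hexa, among the most abundant of the rest, did not pass (limma adjusted p = 0.515 and 0.114).

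**Figure D5:**
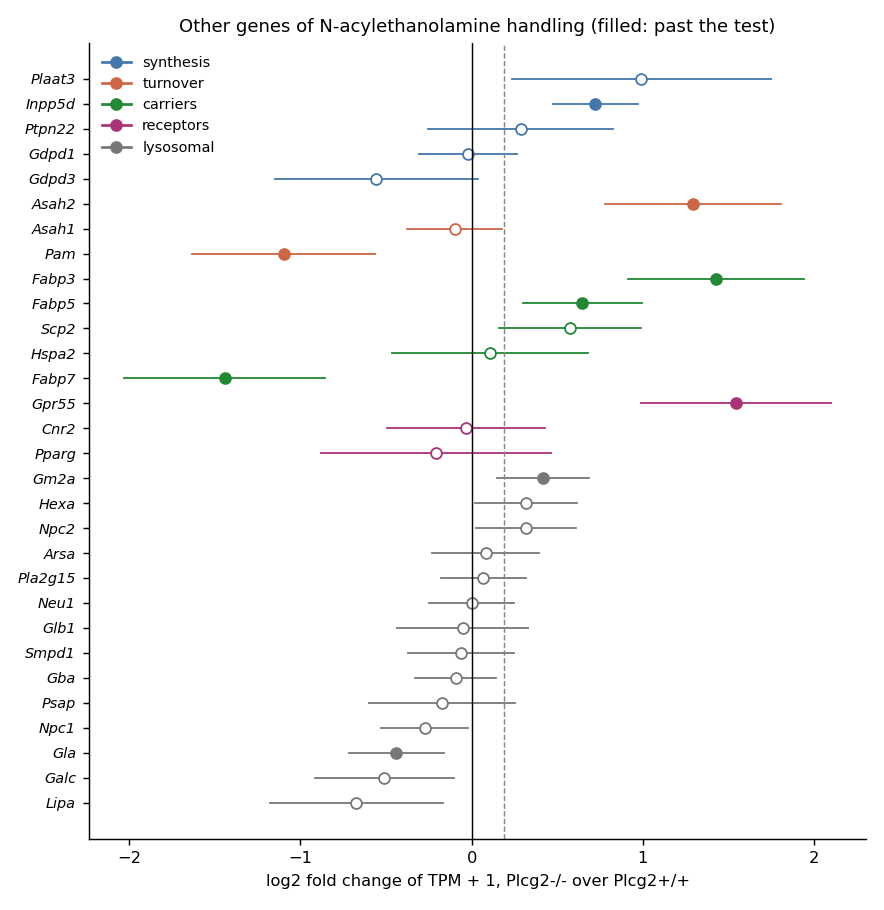
Log2 fold change of TPM + 1, with 95% intervals, for tested genes of the other lists, coloured by list; filled points passed at a limma adjusted p below 0.05, and the dashed line is the median of all genes tested (0.19). Filled points lie on both sides of 0 for turnover enzymes, carriers and lysosomal genes, and the lysosomal genes shown lie between -0.67 and 0.41.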

How the data were processed

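PolyA-selected RNA of 6 libraries was sequenced in 150-bp paired-end mode to a stated 20 M reads a sample, per the labels' protocols. The authors deposited TPM per gene, each column summing to 1000000, so depth is not recoverable. The submitters' processing notes name the build GRCm38.p6 and the tools R 4.0.4, DESeq2 1.30.1 and Salmon 1.3.0; annotation release, strand setting and gene-level summing: not given in the sources used here. Of 54347 identifiers, 53307 matched GENCODE M21 (GRCm38) with version and 54094 without.

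TPM was put on the log2(TPM + 1) scale and 12652 genes with a mean of at least 1 were tested, all 6 libraries together, with limma 3.58.1 under R 4.3.3 (a two-sided test, mean-dependent prior variance, no covariate, Benjamini-Hochberg over all genes tested, threshold 0.05), after a check on simulated data. The simulated data had no library-wide shift, so that check does not bear on the scaling of TPM. No count model was fitted. Tables used Python 3.11.15, pandas 2.3.3, numpy 2.4.6 and scipy 1.17.1. Figures used matplotlib 3.10.9.

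The members and lists were chosen with earlier results of these data known. Named genes were the members, Plcg2, every called gene of the other lists with up to 3 of the most abundant others, and the 3 genes nearest each tested member; other names, including markers and genes listed near 0, were chosen after their values were seen. Replicate numbers come from the titles. Deviations from genotype means correlated at 0.295, 0.193 and 0.147 between same-numbered libraries and at -0.195 to 0.00369 between the others. Each same-numbered value was above 0.1, the limit used here, so the numbers were taken as pairs in an alternative fit. The pairs were thus chosen with these data, and p-values under them are not independent of that choice. A gene of the lysosomal list is not reported here.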

Additional observations from a re-analysis of the deposited data

How the results depend on the processing

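Gde1 and Plcg2 kept their calls in all 17 alternatives, and Abhd4 stayed uncalled in all 17. Naaa kept its direction in all 17 and its call in 7. Without its call, the Naaa log2 fold change was 1.91 with no filter on low values and with constant prior variance, 1.69 after median-of-ratios scaling, 1.78 without mitochondrially encoded genes, 1.67 after quantile normalization and 1.95 with the Y-linked covariate, and the count of members called higher was then 0 in place of 1. Leaving out 1 library gave Naaa 1.38 to 2.35 and 0 to 1 members higher. Napepld reversed to -0.0058 after median-of-ratios scaling, with or without the replicate block; it was not called either way, and Napepld had no value with a mean TPM of at least 5. Faah was fitted in 1 setting only.

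With the replicate block Naaa stayed at 1.91 (limma adjusted p = 0.00331) and Gde1 at -0.77 (limma adjusted p = 0.00837), so on deposited TPM the block changed no member's call. After median-of-ratios scaling it did for Naaa, at a limma adjusted p of 0.0635 without the block and 0.00427 with it, and members called higher were 0 and 1. Gm2a lost its call under the block (limma adjusted p = 0.0546). Other pathway genes called lower numbered 3, against 5 after quantile normalization, 8 with the replicate block and median-of-ratios scaling, 1 with the Y-linked covariate and 1 to 6 without 1 library; those called higher numbered 4 to 7. Over all genes, calls higher and lower were 1971 and 672, against 1226 and 500 with no filter, 1222 and 823 without mitochondrially encoded genes, 977 and 1001 after median-of-ratios scaling, 1104 and 1139 with the block and that scaling, 959 and 1031 after quantile normalization, and 842 and 375 with the Y-linked covariate. Dropping Plcg2+/+ 1 gave 853 and 349, dropping Plcg2+/+ 2 gave 1018 and 422, dropping Plcg2-/- 1 gave 618 and 308, and dropping Plcg2-/- 3 gave 831 and 420. The mitochondrial share differed by -9.14 to -7.03 percentage points without 1 library. The causes of these shifts were not tested. Depth is unknown, so precision at the level of Faah and Napepld cannot be given.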
